A study of Mus musculus with 6 samples.

Results

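The transcription factors that set the helper T cell lineages were followed in regulatory T cells (Tregs) through 9 genes: Tbx21, Eomes, Gata3, Rora, Bcl6, Maf, Runx1, Runx3 and Ahr. Their members are the 31 probe sets whose platform annotation gives one of these symbols alone, out of 45037 probe sets on the array. A probe set is a group of short oligonucleotides read as 1 value, and a gene can have several. The 9 genes were represented unevenly, with 9 probe sets for Rora, 6 each for Maf and Runx1, 2 each for Eomes, Bcl6, Runx3 and Ahr, and 1 each for Tbx21 and Gata3. The probe set of a gene with the highest mean over the arrays is called its leading probe set.

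The series compared sorted splenic Tregs of 2 groups of 3 females of the diabetes-prone NOD strain, with 1 mouse per Affymetrix M430v2 array. All 6 mice carried the BDC2.5 T cell receptor transgene, whose receptor sees an islet antigen, and the Foxp3GFP reporter. The treated mice were RAG1o/o and received 37.5 µg of the anti-CD3 antibody KT3 intravenously once a day for 5 days, beginning at an age of 17 days. Their cells were taken at 29, 29 and 28 days of age, which the labels give as 12, 12 and 11 days after treatment. The untreated mice were RAG1+/o and their cells were taken at 29, 28 and 28 days. Mice without RAG1 cannot rearrange receptor genes, so they make no B cells and no T cells with a receptor other than the transgenic one, whereas the untreated mice can make both. Treatment and RAG1 genotype differed together and cannot be told apart, so "treated" and "untreated" below name the 2 kinds of mice. The sort kept CD4+ GFP+ cells and left out those with B220, CD8a, CD11b or CD11c.

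Helper lineages are set by a small number of transcription factors. The T-box factor T-bet, encoded by Tbx21, directs the Th1 program and its relative Eomes the cytotoxic program. GATA3 directs the Th2 program, and ROR alpha takes part in the Th17 program. Bcl6 directs follicular helper cells and is opposed by Blimp-1, the product of Prdm1. c-Maf and the aryl hydrocarbon receptor Ahr act in several lineages, and the Runx factors bind DNA with their partner Cbf beta and join most of these programs. Tregs can take up the same factors, and in them T-bet, GATA3, Bcl6, c-Maf and Runx1 are known to tune which responses the cells restrain, while Runx1 also works with Foxp3 itself.

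Runx1 and Runx3 share a tandem Runx element in their promoters, which is shown before the values because the Runx proteins are members themselves. Promoter windows in RefSeq's GRCm38.p6 table (250 bases before to 50 after a gene start) were found for 7 of the 9 genes, and not for Maf and Ahr. The windows were searched on both strands for ACCACA, the core that Runx proteins bind, and for its close tandem ACCACAGAACCACA, which contains the core at both ends. The single core was in 16.8% of 32851 windows and the tandem in 4 of them, or 0.0122%. Those 4 belonged to Runx1, Runx2, Runx3 and Gm16225, whose window overlaps that of Runx3. The letters of the tandem were read from the Runx3 window, so the Runx3 and Gm16225 matches were fixed in advance. The 250 bases before the outermost Runx3 start lie at chr4:135120395-135120644 on the plus strand, and the Runx1 stretch of 25 bases at chr16:92826025-92826049 on the minus strand, just after its outermost start. The tandem began 134 bases before the Runx3 start, and its cores lay at bases 29 to 34 and 37 to 42 after the Runx1 start. Capitals mark the cores.
Runx3: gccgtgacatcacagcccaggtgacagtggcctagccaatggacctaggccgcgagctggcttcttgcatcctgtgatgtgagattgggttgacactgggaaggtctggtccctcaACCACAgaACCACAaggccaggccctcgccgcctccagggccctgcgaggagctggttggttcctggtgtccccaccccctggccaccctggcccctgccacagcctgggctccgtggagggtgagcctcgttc
Runx1: acaACCACAgaACCACAagttgggt
The run shared around the tandem was 18 bases long, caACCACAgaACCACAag. Each gene had 2 windows in the table, and the tandem was in 1 of the 2 for both. A match is a description of letters, and binding was not measured.

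Of the 31 member probe sets, 0 passed the test between treated and untreated Tregs (limma, Benjamini-Hochberg adjusted p under 0.05 over all 45037 probe sets), beside 0% of all probe sets. The smallest adjusted p among members was 0.961. The member closest to a difference was Ahr, whose leading probe set was lower in all 3 treated mice, by 1.84-fold. In their leading probe sets the T-box genes Tbx21 and Eomes, Gata3 and Runx3 had higher means in treated mice, by 1.27-fold to 2.33-fold, with overlapping groups. Rora and Runx1 were divided among their probe sets. An unadjusted p under 0.05 was found for 3 member probe sets, 1 higher and 2 lower, beside 1.53% of all probe sets higher, 3.00% lower and 4.52% in either direction. The groups did not overlap in 6 members, 2 higher and 4 lower, beside 5.14% of all probe sets higher, 5.02% lower and 10.2% in either direction. A difference above 0 was found in 21 members and below 0 in 10, with a median of +0.20 on the log2 scale. Over all probe sets 26101 were above 0 and 18936 below, with a median of +0.05.

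Level is given below as log2 of the RMA intensity, in the order of replicates 1, 2 and 3, and differences are treated minus untreated on that log2 scale. Levels of different probe sets cannot be compared with each other. In bulk RNA of this kind, fewer cells of a type and less RNA per cell cannot be told apart. Transcripts of the sorted identity are given next, and the series has no array of other sorted cells to set them beside. Foxp3 measured 11.43, 11.46 and 12.44 in treated and 10.75, 9.95 and 11.07 in untreated mice, Cd3e 11.97 to 12.16 against 11.62 to 11.82, and Cd4 9.77 to 10.41 against 9.10 to 10.01. Of 8 regulatory T cell markers 7 were above 0 and 1 below, with Cd3g at +0.69. The Cd8a and Cd8b1 means were 6.98 and 6.12 in treated and 7.02 and 6.22 in untreated mice. Rag1 measured 6.68, 5.23 and 4.93 against 7.61, 7.30 and 5.47, and whether this probe set lies in the deleted part is not known here.

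The arrays differed in transcripts of other cell types: untreated replicates 1 and 2 stood apart in B cell markers, and untreated replicate 3 in myeloid, NK and erythroid ones. The mean of 9 B cell markers was 6.34 to 6.63 in treated mice, 10.12 and 9.99 in untreated replicates 1 and 2, and 7.12 in untreated replicate 3. In single genes Ms4a1, the gene of CD20, differed by -5.13, Jchain by -5.27 and Cd79b by -2.84. The mean of 9 myeloid markers was 8.73 to 9.76 in treated mice and 9.19, 9.31 and 7.25 in the untreated ones. The mean of 7 NK and innate lymphoid markers was 7.17 to 7.85 in treated mice and 7.66, 7.64 and 5.76 in the untreated ones. Untreated replicate 3 also had the lowest log2 ratios of 3′ to 5′ control probe sets, 2.02 for Gapdh and 0.92 for beta-actin, beside 3.23 to 4.10 and 1.31 to 3.62 on the other arrays. The mean of 6 erythroid and platelet markers, 5 above 0 and 1 below, was 7.81 to 8.03 in treated mice and 7.93, 8.52 and 6.80 in the untreated ones. Of 6 immature thymocyte markers 3 were above 0 and 3 below. Without untreated replicate 3, 2 probe sets passed as higher and 57 as lower over the whole array, and 0 of the members passed.

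**Figure D1:**
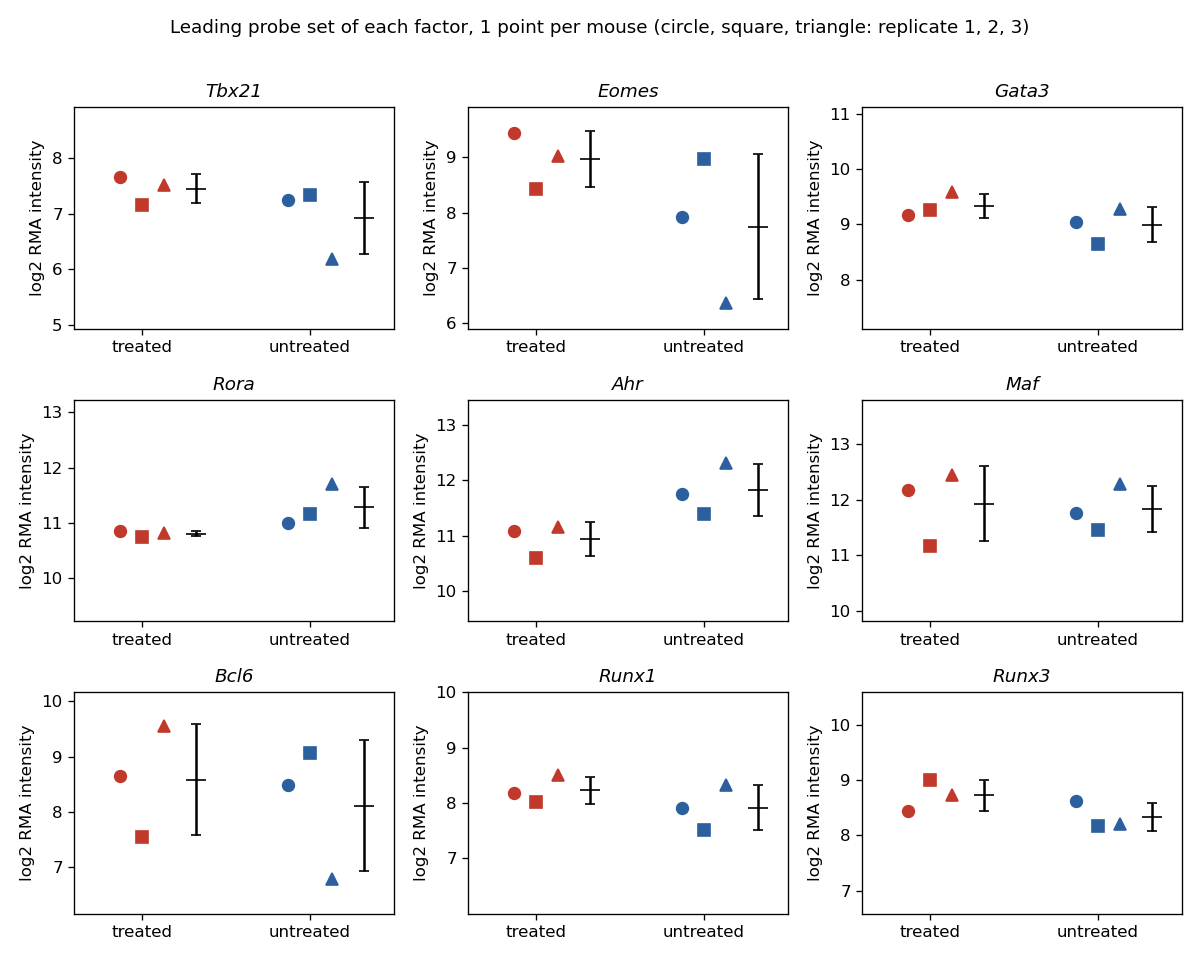
Leading probe set of each of the 9 genes, with log2 RMA intensity on the y axis (each panel spans the same number of log2 units) and 1 point per mouse, and with mean and SD of each group of 3 beside the points. Ahr and Rora separate the groups, while in Tbx21, Eomes and Bcl6 the lowest point is untreated replicate 3.

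Tbx21, the gene of the Th1 master regulator, measured 7.67, 7.17 and 7.53 in treated and 7.25, 7.35 and 6.18 in untreated mice. The groups overlapped, and untreated replicate 3 was the lowest array. The difference was +0.53 (95% interval -0.25 to 1.31, limma adjusted p = 0.961). Without untreated replicate 3 it was +0.16 (interval -0.39 to 0.70).

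Eomes, the T-box gene of cytotoxic and memory lymphocytes (chr9:118478186-118486132, GRCm38.p6), had the largest positive difference among the members. Its leading probe set measured 9.44, 8.43 and 9.02 in treated and 7.91, 8.96 and 6.36 in untreated mice. The groups overlapped, since untreated replicate 2 lay above treated replicate 2, and untreated replicate 3 was far below every other array. The difference was +1.22, or 2.33-fold (interval -0.25 to 2.68, limma adjusted p = 0.961). The other Eomes probe set measured 7.63, 7.63 and 7.19 against 6.71, 7.47 and 6.36, with a difference of +0.63 (interval -0.08 to 1.35). Without untreated replicate 3 the leading probe set differed by +0.53 (interval -0.46 to 1.51) and the other by +0.39 (interval -0.32 to 1.10).

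The NK and innate lymphoid markers, cells in which both T-box genes are active, were lowest in the same array. Of the 7 measured markers 5 had a difference above 0 and 2 below. Of the 5 above 0, Klre1 and Klra8 turned to -0.30 and -0.12 without untreated replicate 3, and the others stayed above 0. Klre1 and Klra8 were chosen after their values were seen. The summed linear intensity of the 7 markers was 1658 to 4023 in treated and 428.9 to 2562 in untreated mice. Klrd1, an NK receptor gene, measured 10.45, 8.97 and 9.72 in treated and 9.18, 9.28 and 5.83 in untreated mice. Ncr1, the gene of the NK receptor NKp46, pointed the other way, with 6.30, 6.06 and 6.04 against 7.09, 7.56 and 5.83. Fcer1g differed by +1.11. The part of such cells in the Tbx21 and Eomes values was not tested.

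**Figure D2:**
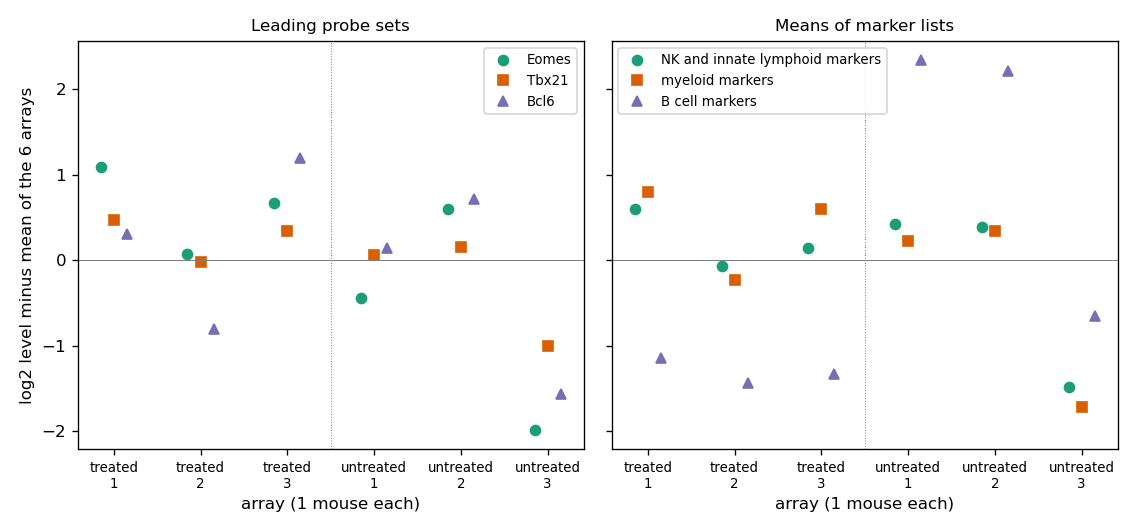
Level on each of the 6 arrays minus the mean of the 6, in log2 units, for the leading probe sets of Eomes, Tbx21 and Bcl6 (left) and for the means of the NK and innate lymphoid, myeloid and B cell marker lists (right). Untreated replicate 3 is the lowest point of Eomes, Tbx21, Bcl6 and of the NK and myeloid lists, while the B cell list is high in untreated replicates 1 and 2.

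The T-box pair was also compared within each array. The leading probe set of Tbx21 minus that of Eomes within an array was -1.78, -1.26 and -1.49 in treated and -0.67, -1.61 and -0.18 in untreated mice. The group difference was -0.69 (exact two-sided permutation p = 0.3, adjusted p = 1 over 4 pairs), where 3 against 3 cannot go below 0.1, so the test could not pass at this size. Without untreated replicate 2 it was -1.09, and without untreated replicate 3 it was -0.37.

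Targets of the T-box factors and Runx3 gave 10 of 14 measured genes above 0 and 4 below, with a median of +0.31 beside +0.05 over the leading probe sets of all 18193 genes. None passed the adjusted test, and 1 was higher and 1 lower at an unadjusted p under 0.05, beside 4.99% of all genes in either direction. Il18r1, which encodes the interleukin-18 receptor that Th1 cells carry, measured 11.46, 11.06 and 11.40 in treated and 10.67, 10.14 and 10.12 in untreated mice. All treated values lay above all untreated ones, and the difference was +1.00 (interval 0.48 to 1.51, limma adjusted p = 0.961). Gzmb, the gene of the killing protease granzyme B, differed by -0.78 (interval -1.55 to -0.01) with overlapping groups. Ccl5, a chemokine gene, differed by +0.65. Without untreated replicate 3 these differences were +0.90 for Il18r1, -0.64 for Gzmb and +0.37 for Ccl5.

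Gata3, the gene of the Th2 regulator that also supports Treg function, measured 9.17, 9.27 and 9.58 in treated and 9.05, 8.66 and 9.28 in untreated mice. The groups overlapped, with untreated replicate 3 the highest of its group and above treated replicates 1 and 2. The difference was +0.34 (interval -0.17 to 0.85, limma adjusted p = 0.961). It was +0.49 without untreated replicate 3, and +0.22 and +0.17 when treated replicate 3 or untreated replicate 2 was left out. Among 8 measured Gata3 targets 5 were above 0 and 3 below, with a median of +0.06. An unadjusted p under 0.05 was reached by 0 of them, beside 4.99% of all genes in either direction. The receptor genes Ptgdr2, Ccr4 and Ccr8 differed by +0.22, -0.27 and +0.14. The Gata3 minus Tbx21 value within an array was 1.88 ± 0.33 in treated and 2.07 ± 0.93 in untreated mice (SD, n = 3, exact two-sided permutation p = 0.9).

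Rora, the gene of the nuclear receptor ROR alpha (chr9:68653404-69388246), was lower in treated mice in its leading probe set. It measured 10.85, 10.75 and 10.82 in treated and 10.99, 11.17 and 11.70 in untreated mice. The treated arrays lay close together and all below the untreated ones, and untreated replicate 3 was the highest. The difference was -0.48, or 1.39-fold lower (interval -0.98 to 0.03, limma adjusted p = 0.961), and -0.27 without untreated replicate 3 (interval -0.73 to 0.19).

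The other Rora probe sets did not share 1 pattern. Of all 9, 4 had a difference above 0 and 5 below, from -0.72 to +0.39. Of the 6 at or above the median level of all probe sets, 2 were above 0, at +0.04 and +0.003. The probe set 1436326_at measured 8.17, 7.87 and 7.30 in treated and 7.98, 8.42 and 9.11 in untreated mice, a difference of -0.72 (interval -1.53 to 0.08). The probe set 1420583_a_at measured 9.87, 8.57 and 9.18 against 9.61, 8.98 and 10.82, a difference of -0.60 that was -0.09 without untreated replicate 3. In both, untreated replicate 3 was the highest array. Where these probe sets lie along the Rora transcripts was not analysed here, and the part of the 3′ to 5′ ratio, lowest in that array, was not tested.

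**Figure D3:**
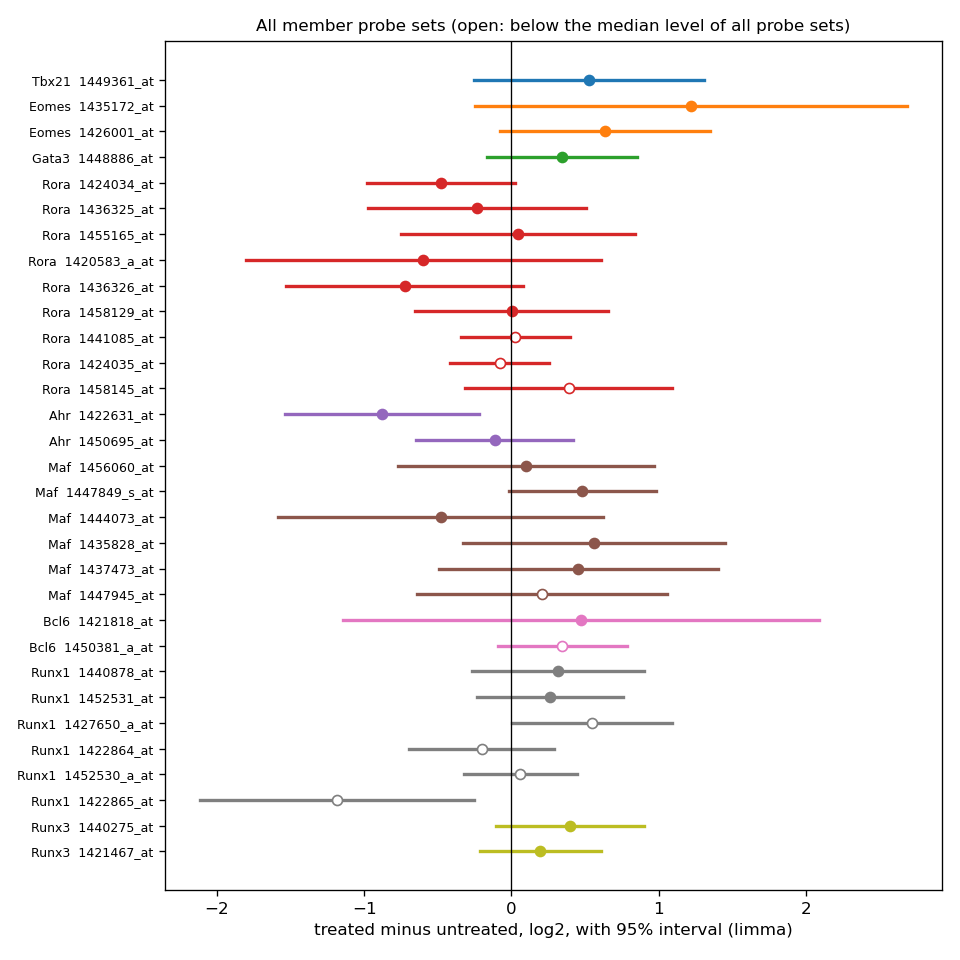
Difference between treated and untreated mice on the log2 scale (x axis) with its 95% interval from limma for all 31 member probe sets, grouped and coloured by gene; open points lie below the median level of all probe sets. The intervals of 3 probe sets exclude 0: Ahr 1422631_at, Runx1 1422865_at and Runx1 1427650_a_at.

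Ahr, the gene of the ligand-activated aryl hydrocarbon receptor (chr12:35497979-35534989), had the smallest p among the members. Its leading probe set measured 11.08, 10.60 and 11.15 in treated and 11.76, 11.39 and 12.32 in untreated mice. All treated values lay below all untreated ones, the nearest pair being treated replicate 3 and untreated replicate 2. The difference was -0.88, or 1.84-fold lower (interval -1.54 to -0.22, limma adjusted p = 0.961). Without untreated replicate 3 it was -0.63 (interval -1.25 to -0.02). The other Ahr probe set, 1450695_at, annotated with the same accession, measured 6.57, 6.64 and 6.30 against 6.30, 6.53 and 7.02, with overlapping groups. It differed by -0.11 (interval -0.65 to 0.42), and by +0.09 without untreated replicate 3.

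Genes that respond to Ahr were divided. Of 8 measured genes 3 were above 0 and 5 below, with a median of -0.14. At an unadjusted p under 0.05, 1 gene was lower, beside 4.99% of all genes in either direction. That gene was Gpr15, a receptor gene that guides T cells to the colon, at 9.22, 9.49 and 8.98 in treated and 11.15, 10.38 and 11.81 in untreated mice. All treated values lay below all untreated ones by a wide margin, and the difference was -1.88, or 3.68-fold lower (interval -2.72 to -1.04, limma adjusted p = 0.882). The xenobiotic enzyme genes Cyp1b1 and Cyp1a1 differed by -0.36 (interval -0.86 to 0.14) and +0.23 (interval -0.19 to 0.65), and both overlapped. The receptor's own repressor gene Ahrr differed by +0.05 and Tiparp by -0.03, both chosen after their values were seen.

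Maf, the gene of the bZIP factor c-Maf, had most of its probe sets above 0, with wide spread. The leading probe set measured 12.18, 11.17 and 12.45 in treated and 11.75, 11.46 and 12.28 in untreated mice. The groups overlapped fully, with treated replicate 2 the lowest array, and the difference was +0.10 (interval -0.77 to 0.97, limma adjusted p = 0.981). The probe set 1447849_s_at measured 11.82, 12.09 and 12.05 against 11.84, 11.16 and 11.51, where only untreated replicate 1 reached the treated range, with a difference of +0.48 (interval -0.02 to 0.98). Of the 6 Maf probe sets 5 were above 0 and 1 below, from -0.48 to +0.56. The one below 0, 1444073_at, measured 9.38, 8.08 and 8.70 against 9.30, 8.34 and 9.94.

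Genes tied to Rora, Maf and the Th17 program included 7 measured of 10 listed, with 5 above 0 and 2 below and a median of +0.38. The genes with an unadjusted p under 0.05 were 2 higher and 1 lower, beside 4.99% of all genes in either direction. Il1r1, the interleukin-1 receptor gene, measured 7.76, 7.87 and 7.87 in treated and 7.13, 6.96 and 6.84 in untreated mice, a difference of +0.86 (interval 0.49 to 1.22, limma adjusted p = 0.882). Ltb4r1, the leukotriene B4 receptor gene, differed by +0.69 (interval 0.13 to 1.26). Ccr6, the chemokine receptor gene of Th17 cells, measured 11.86, 11.70 and 11.87 against 12.09, 12.25 and 12.71, a difference of -0.54 (interval -1.01 to -0.06) and -0.36 without untreated replicate 3. In Il1r1, Ltb4r1 and Ccr6 the groups did not overlap, beside 10.9% of all genes whose groups did not overlap. The cytokine gene Il17a, chosen after its values were seen, differed by +0.02 (interval -0.47 to 0.50).

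Bcl6, the gene of the follicular helper repressor, varied more within the groups than between them. Its leading probe set measured 8.66, 7.55 and 9.55 in treated and 8.49, 9.06 and 6.79 in untreated mice. Treated replicate 2 and untreated replicate 3 were the low arrays, and the groups overlapped. The difference was +0.47 (interval -1.14 to 2.09, limma adjusted p = 0.962), and it turned to -0.19 (interval -1.53 to 1.15) without untreated replicate 3. The other probe set, below the median level of all probe sets, measured 6.15, 6.58 and 6.13 against 5.80, 6.03 and 5.99, with no overlap and a difference of +0.35 (interval -0.09 to 0.78). The myeloid list had its lowest means in the same arrays as the leading probe set, treated replicate 2 at 8.73 and untreated replicate 3 at 7.25. Of its 9 measured genes 8 were above 0 and 1 below, and their summed linear intensity was 10290 to 23510 in treated and 3182 to 17790 in untreated mice. Of the 8 above 0, Csf1r, Fcgr3 and Itgax turned to -0.50, -0.13 and -0.23 without untreated replicate 3. The others of the 8 stayed above 0, Lyz2 at +0.11. Lyz2 measured 11.93 to 13.42 in treated and 8.01 to 12.77 in untreated mice. Itgam, the gene of the CD11b used in the sort, measured 4.84 to 5.96 and 5.15 to 6.64 and was the 1 gene below 0, at -0.36. Csf1r, Fcgr3, Itgax, Lyz2 and Itgam were chosen after their values were seen. C1qa, with the smallest p of the list, measured 6.77 to 7.32 and 6.24 to 6.55. The part of myeloid RNA in the Bcl6 values was not tested.

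Follicular helper genes had differences below 0 in 7 of 10 and above 0 in 3, with a median of -0.40. At an unadjusted p under 0.05, 1 was higher and 2 were lower, beside 4.99% of all genes in either direction. Pdcd1, the gene of the inhibitory receptor PD-1, measured 8.43, 8.22 and 9.86 in treated and 6.62, 6.99 and 7.91 in untreated mice, without overlap, a difference of +1.67 (interval 0.48 to 2.85, limma adjusted p = 0.961). Btla, an inhibitory receptor gene that B cells also express, measured 11.90, 11.56 and 11.58 against 12.83, 12.92 and 11.80, a difference of -0.84. Cd200, also found on B cells, measured 8.80, 7.62 and 9.34 against 9.71, 9.73 and 9.28, a difference of -0.99. For Btla, and by less for Cd200, the untreated arrays stood in the same split as the B cell list, with replicates 1 and 2 high. So did Cxcr5, at 7.74, 7.75 and 6.57 in untreated mice, with the largest negative difference of the list, -1.08 (interval -2.22 to 0.06). P2rx7 and Il6st, also below 0, did not show this split. Cxcr5, P2rx7 and Il6st were chosen after their values were seen. The 9 measured B cell markers were all below 0, 6 of them at an unadjusted p under 0.05, beside 4.99% of all genes in either direction. Their summed linear intensity was 996.1 to 1163 in treated and 2018 to 26160 in untreated mice. The part of B cell RNA in these values was not tested.

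Prdm1, the gene of Blimp-1, which opposes Bcl6, measured 10.85, 10.83 and 10.50 in treated and 11.01, 10.77 and 11.58 in untreated mice. The groups overlapped, and the difference was -0.40 (interval -0.97 to 0.17). The Bcl6 minus Prdm1 value within an array was -2.14 ± 1.17 in treated and -3.01 ± 1.60 in untreated mice (SD, n = 3, exact two-sided permutation p = 0.5). It was lowest in untreated replicate 3, at -4.79, and without that array the difference of +0.87 became -0.02.

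Runx3, the Runx gene of CD8 and Th1 cells, measured 8.44, 9.0035 and 8.74 in treated and 8.61, 8.18 and 8.20 in untreated mice. Only untreated replicate 1 reached into the treated range, and the difference was +0.40, or 1.32-fold (interval -0.11 to 0.90, limma adjusted p = 0.961). Its other probe set measured 7.19, 7.57 and 7.17 against 7.12, 7.03 and 7.20 and differed by +0.20. Without untreated replicate 3 these were +0.33 and +0.24.

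Runx1, the Runx gene that partners Foxp3, gave probe sets that pointed both ways. The leading probe set measured 8.17, 8.02 and 8.50 in treated and 7.91, 7.51 and 8.32 in untreated mice, with overlap and a difference of +0.32 (interval -0.27 to 0.90, limma adjusted p = 0.961). That difference was +0.52 without untreated replicate 3, and +0.18 and +0.12 when treated replicate 3 or untreated replicate 2 was left out. Of all 6 probe sets 4 were above 0 and 2 below, and 4 lay below the median level of all probe sets. The dim probe set 1427650_a_at measured 6.30, 7.03 and 6.78 against 5.92, 6.30 and 6.25, a difference of +0.55 (interval 0.0047 to 1.09). The dimmest, 1422865_at, measured 4.31, 4.35 and 4.61 against 4.86, 5.44 and 6.51, a difference of -1.18 (interval -2.11 to -0.25, limma adjusted p = 0.961). Its treated arrays lay together, all below the untreated ones, while untreated replicate 3 stood over a log2 unit above the rest of its group, and without it the difference was -0.73. The linear intensities were 19.8 to 24.4 in treated and 28.9 to 91.0 in untreated mice, near the low end of the array, and with an offset of 32 before log2 the difference was -0.63. Another probe set annotated with the same accession, 1422864_at, differed by -0.20 (interval -0.69 to 0.29) with overlap.

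The Runx pair was compared within each array. The leading probe set of Runx1 minus that of Runx3 within an array was -0.50 ± 0.42 in treated and -0.42 ± 0.46 in untreated mice (SD, n = 3, exact two-sided permutation p = 1). The difference of -0.08 was +0.19 without untreated replicate 3, +0.17 without treated replicate 2 and -0.33 with the probe sets of each gene averaged. Cbfb, the shared Runx partner, measured 12.04, 11.30 and 12.26 in treated and 12.03, 11.91 and 12.38 in untreated mice, a difference of -0.24 (interval -0.90 to 0.42). Zbtb7b, encoding ThPOK, which with Runx3 divides CD4 from CD8 cells, differed by +0.31 (interval -0.21 to 0.83).

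Of 30 listed partners and regulators 25 were measured under a single symbol, 16 above 0 and 9 below, with a median of +0.13. At an unadjusted p under 0.05, 1 was higher and 1 lower, beside 4.99% of all genes in either direction. None passed the adjusted test. Bach2, a repressor gene that restrains effector programs and is also active in B cells, measured 8.32, 8.12 and 7.35 in treated and 9.79, 10.24 and 8.53 in untreated mice, a difference of -1.59 (interval -2.68 to -0.49, limma adjusted p = 0.961). All treated values lay below all untreated ones, and untreated replicates 1 and 2, the arrays with high B cell markers, were highest. Nfil3, a bZIP repressor gene of effector cells, measured 7.70, 7.56 and 8.54 against 6.95, 6.91 and 7.38, a difference of +0.86 (interval 0.17 to 1.54). Mafk, a small Maf protein gene, differed by +0.38 (interval -0.01 to 0.78).

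**Figure D4:**
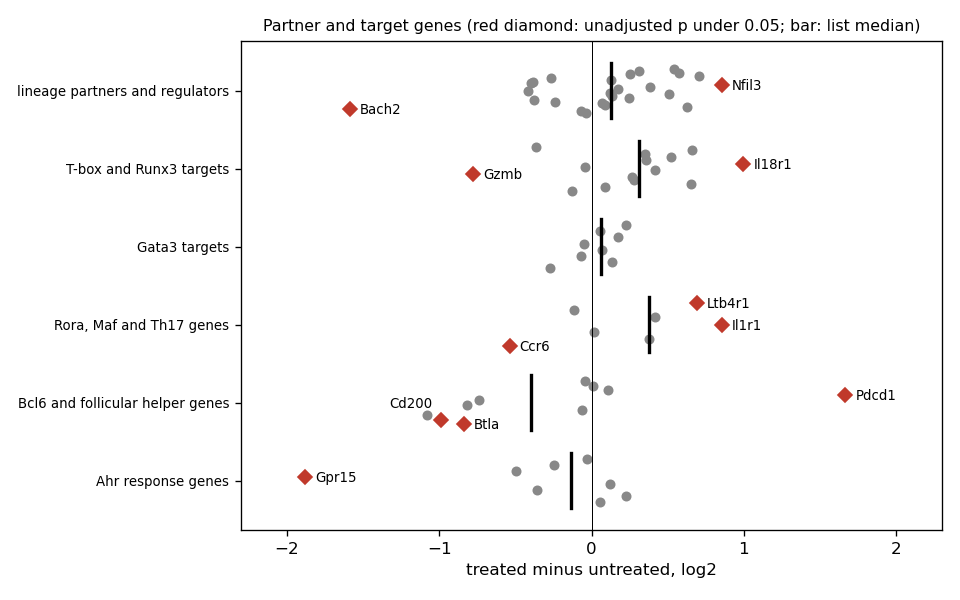
Difference between treated and untreated mice on the log2 scale (x axis) for each measured partner or target gene, 1 point per gene, in 6 lists (y axis), with the list median as a bar and genes at an unadjusted p under 0.05 as labelled diamonds. The largest differences are Pdcd1 at +1.67 and Gpr15 at -1.88, and none passed the adjusted test.

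The genes with the most similar profile were found as the smallest root mean square difference of centred log2 values over the 6 arrays, among 11394 genes at or above the median level. The nearest to Rora was Ccr6, at 0.0514, beside a median of 0.447 over all these genes. The nearest to Eomes were S1pr5, a receptor gene of NK cells, at 0.286, and Lrrk1 at 0.312, beside a median of 1.06. The nearest to Bcl6 were Prtn3, a neutrophil protease gene, at 0.183, and Lbp at 0.199, beside a median of 0.959. The nearest to Tbx21 were Samd11 at 0.116 and Alox5, a leukotriene enzyme gene, at 0.121. For Ahr they were Etnk1 at 0.144 and Hspa14 at 0.154, and for Maf Rnf26 at 0.0860 and Sf3b1 at 0.106. For Gata3 they were Pnpla6 and Angptl4, for Runx1 Fam53b and Tgoln1, and for Runx3 Rabl6 and Ift22, each within 0.0697, and Zfp369 followed Ccr6 for Rora. With 6 arrays and this many genes, close profiles arise for any gene, so the values are a description.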

How the data were processed

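The authors processed Affymetrix M430v2 arrays with RMA in GenePattern, per the series' design text and the submitters' processing notes. No source used here gives its version. Values were deposited as linear RMA intensity, from RNA amplified in a pair of rounds per the labels' protocols, which can strengthen 3′ bias. Log2 was taken here with no further normalization. RMA makes arrays alike, so a change of most transcripts cannot be seen. The 64 control probe sets were left out. Symbols came from the platform annotation, updated through gene identifiers for 34741 of 34945 probe sets with 1 symbol; 932 had several and 9160 none. Each array held 1 mouse, so the 3 replicates of a group are mice, and the number of arrays limits the precision.

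The test was limma (version 3.58.1, lmFit and eBayes, under R 4.3.3) over all 45037 probe sets, each on its own, with Benjamini-Hochberg adjustment over all of them. Intervals are 95% intervals. In data simulated over 45037 probe sets the test called 6.8% of probe sets altered 2-fold, 76.8% at 4-fold and 93.6% at 8-fold. There were 9.6 false calls per run. The simulation used independent normal errors of equal spread on all 6 arrays, which the real arrays did not have. Ms4a1, lower by 35.1-fold with an untreated SD of 2.29, did not pass in the real data. The simulated shares therefore do not hold for probe sets with such an uneven spread. A single-symbol probe set was found for 119 of the 134 list entries, and lists used 1 probe set per gene. All member probe sets were described; from each list up to 3 genes with the smallest p were named, and Foxp3, Cd4, Cd3e, Rag1, Prdm1, Cbfb and Zbtb7b always. Others are marked as chosen after their values were seen, apart from the nearest profiles, named by rule. The members and lists were chosen with earlier results of these data known. Promoter orientation was checked on 1645 pairs of overlapping windows of opposite strands, which all matched. Alternatives were median centring, quantile normalization, an offset of 32 before log2, a trended robust fit, array weights, age or array file set as a covariate, the replicate number as a block, leaving out each replicate, gene summaries, a filter on dim probe sets and an adjusted p under 0.1. Figures were drawn with matplotlib 3.10.9.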

Additional observations from a re-analysis of the deposited data

How the results depend on the processing

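Across the alternatives run, 0 member probe sets passed the adjusted test. Adjusted p was followed for the leading probe sets and those at an unadjusted p under 0.05 in the main fit. Its smallest value among them was 0.658, for Ahr. The leading probe set of Ahr kept its direction in 20 of 20 settings (-1.17 to -0.50). Leading probe sets of Tbx21, Eomes, Gata3, Rora and Runx3 kept theirs in 20 of 20, and with a replicate left out ranged from +0.16 to +0.74, +0.53 to +1.83, +0.17 to +0.49, -0.62 to -0.27 and +0.26 to +0.54. Runx3 was +0.11 with array weights. Several of the 20 settings could not move the difference of a leading probe set, so the count overstates the evidence. They were the replicate block, the array file set, 1 probe set per gene, the filter on dim probe sets, the trended robust fit and the looser threshold. Over all probe sets the calls were 0 at first, 5 with array weights, 34 within the first 4 array files (replicates 1 and 2 of both groups, whose file numbers in the labels run together), and 0 to 59 when a replicate was left out (59 without untreated replicate 3). Calls among list genes were 5 within the first 4 array files and 0 to 5 with a replicate left out, all 5 without untreated replicate 3 being B cell markers. The members at an unadjusted p under 0.05 numbered 3 (4.52% of all probe sets). There was 1 when 1 probe set per gene was fitted (4.81% of all genes) and 1 with dim probe sets left out (5.48% of those kept). With each gene's probe sets averaged there were 0 (4.94% of all genes). With a replicate left out there were 1 to 5, beside 2.38% to 6.34% of all probe sets. The 1 was without treated replicate 2, where 4.66% of all probe sets were, and the 5 without untreated replicate 1, where 3.12% were. Members above 0 numbered 21, and 7 of 9 genes or 6 of 9 by these gene summaries, where fewer values are tested. Fewer arrays separate more often, so each count without overlap stands beside the share of all features at its setting: 6 of 31 members (10.2% of all probe sets), 15 within the first 4 array files (36.0%), 9 to 11 with a replicate left out (16.2% to 22.5%), 2 of 9 and 1 of 9 by the gene summaries (10.9% and 11.0%), and 2 of 22 without dim probe sets (11.8%). Bcl6 turned to -0.67 within the first 4 array files, and ranged from -0.19 to +0.99 with a replicate left out, -0.01 without treated replicate 3. Maf ranged from -0.16 to +0.48, turning without treated replicate 1 or 3 or untreated replicate 2. Runx1 ranged from +0.12 to +0.52 and was -0.032 with its probe sets averaged. The balance of Tbx21 to Eomes ranged from -1.09 to -0.37 with a replicate left out, Runx1 to Runx3 from -0.22 to +0.19, Gata3 to Tbx21 from -0.565 to +0.33, and Bcl6 to Prdm1 from -0.0243 to +1.52. Whether the replicate numbers pair the arrays is not settled: same-numbered arrays have neighbouring file numbers, and their deviations correlated at 0.451, 0.0826 and 0.0882, all above 0 but only 1 of 3 over the 0.1 asked of each. As a hint from the data, 4 of 6 arrays correlated best with their own number. With the replicate number as a block 0 probe sets passed, and 4 members had an unadjusted p under 0.05. The share of all probe sets was 6.7% at this setting, beside 4.52% in the main fit. Ahr differed by -0.88, a value that a balanced block leaves unchanged. The cause of these differences was not tested.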
